A study of Mus musculus with 6 samples.

Results

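The genes Sox1, Otx2, Six3, Pax6, Pax3, Zic1, Neurog1 and Olig2 encode transcription factors of the neuroectoderm, and their chromosomal surroundings were followed by Hi-C, in which cross-linked DNA fragments are cut, ligated and sequenced in pairs to show what lies close together in the nucleus. The 8 genes were chosen by name from 20665 protein-coding genes on autosomes, with earlier results of these data known. Each gene was described by the 50 kb bins that overlap the gene or the 250 kb on either side of it, and by the chromatin loops that have an anchor within 50 kb of it. The cells were E14 mouse embryonic stem cells, an established line from a male embryo, grown in serum and leukemia inhibitory factor. All groups had been transfected with esiRNA, a mixture of small interfering RNAs cut from long double-stranded RNA, and were harvested 48 h after transfection. In Brg1KD the esiRNA was directed against Smarca4, the gene of Brg1, which is the ATPase of the BAF chromatin remodelling complex. In Ino80KD the target was Ino80, which encodes the motor subunit of the INO80 remodeller. In Control it was directed against EGFP. Each group had 2 libraries, 1 in each of 2 batches. The knockdown was transient, and Hi-C gives no transcript level, so neither the depth of the knockdown nor the markers of the stem cell state were measured here.

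Neural induction turns part of the epiblast into neuroectoderm, the source of the brain, the spinal cord and the neural crest. Sox1, a SoxB1 factor, is an early marker of the neural plate, Otx2 and Six3 are homeobox genes of the anterior brain, and Pax6 is a paired-box gene of the eye, the forebrain and spinal cord progenitors. Pax3 and Zic1 act in the dorsal neural tube and the neural crest, Neurog1 is a proneural basic helix-loop-helix gene of sensory neurons, and Olig2 is a basic helix-loop-helix gene of motor neuron and oligodendrocyte progenitors. In embryonic stem cells such developmental genes are mostly silent and many are bound by Polycomb complexes, while Otx2 is also expressed in the epiblast.

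Both measures came from files of the authors. For each library the genome had been divided into 8 subcompartments, from B.2.2, the most inactive, up to A.1.1, the most active. A rank from 1 (B.2.2) to 8 (A.1.1) was read from the deposited score, ranks above 4 being A. The level of a gene is its window mean rank, the mean over 11 bins (12 for Pax3), and 1 class is 1 step of this rank. For each group 1 loop list was also given, with 6013 loops in Brg1KD, 5475 in Ino80KD and 5903 in Control, and with no score or read count per loop. These lists were treated as pooled over both libraries, so a difference between them has no replicate check, and a loop that is missing from a list is not shown to be absent from the cells. Read depth is not in the files and is unknown here, so no interval for counting error was computed. Nothing says that the 2 libraries of a group came from separate cultures, so p-values measure only the spread between these libraries, which may be technical.

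The promoters of the genes that lie in or next to a loop anchor are shown first, because the loop results below concern these genes. Several of the anchors lie beside the promoter and do not hold it. They are the 250 bases before the RefSeq start of transcription (RefSeq, GRCm38.p6, the assembly of mm10), written from 5′ to 3′ on the strand of the gene. Capitals mark GATC, the site of DpnII, the enzyme that cut the chromatin in this Hi-C, and CCCTC or its reverse complement GAGGG, the core of the motif of the loop-anchoring factor CTCF.
Sox1, chr8:12395269-12395518, plus strand: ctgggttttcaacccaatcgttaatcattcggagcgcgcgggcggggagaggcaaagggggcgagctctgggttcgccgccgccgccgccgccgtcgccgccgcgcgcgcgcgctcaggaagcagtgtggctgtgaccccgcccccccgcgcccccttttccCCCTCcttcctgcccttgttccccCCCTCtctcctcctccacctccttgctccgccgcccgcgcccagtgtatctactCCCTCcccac
Six3, chr17:85620584-85620833, plus strand: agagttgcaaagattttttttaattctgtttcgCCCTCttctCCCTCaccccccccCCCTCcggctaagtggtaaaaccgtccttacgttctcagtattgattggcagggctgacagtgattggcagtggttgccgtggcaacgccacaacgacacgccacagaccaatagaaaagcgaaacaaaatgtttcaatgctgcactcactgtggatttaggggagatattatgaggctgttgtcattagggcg
Pax6, chr2:105668646-105668895, plus strand: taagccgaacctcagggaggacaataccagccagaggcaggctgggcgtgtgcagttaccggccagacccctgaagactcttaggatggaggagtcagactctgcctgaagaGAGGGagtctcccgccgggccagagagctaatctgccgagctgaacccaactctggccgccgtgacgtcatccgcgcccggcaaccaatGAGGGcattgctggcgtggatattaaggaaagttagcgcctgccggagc
Zic1, chr9:91365769-91366018, minus strand: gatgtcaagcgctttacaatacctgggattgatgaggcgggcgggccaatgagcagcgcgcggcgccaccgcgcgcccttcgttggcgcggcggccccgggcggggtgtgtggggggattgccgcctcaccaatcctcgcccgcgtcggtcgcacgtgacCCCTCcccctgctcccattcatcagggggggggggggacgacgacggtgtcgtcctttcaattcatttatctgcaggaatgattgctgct
Neurog1, chr13:56252181-56252430, minus strand: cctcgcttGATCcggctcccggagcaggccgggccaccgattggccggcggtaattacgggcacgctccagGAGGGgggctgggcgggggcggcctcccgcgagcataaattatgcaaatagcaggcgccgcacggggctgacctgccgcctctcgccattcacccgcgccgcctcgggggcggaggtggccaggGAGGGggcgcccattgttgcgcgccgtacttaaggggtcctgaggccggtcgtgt
Olig2, chr16:91225300-91225549, plus strand: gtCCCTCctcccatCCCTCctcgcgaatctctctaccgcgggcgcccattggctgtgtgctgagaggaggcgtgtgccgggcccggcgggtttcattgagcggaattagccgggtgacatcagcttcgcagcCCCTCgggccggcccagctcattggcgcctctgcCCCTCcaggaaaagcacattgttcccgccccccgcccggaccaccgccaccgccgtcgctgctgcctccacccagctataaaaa
Of the 8 genes 7 had a promoter in the table, Pax3 being the one without an entry. The Sox1 and Olig2 starts lay inside a 10 kb loop anchor of all 3 lists. The Pax6 start lay inside an anchor in Control and 1.105 kb from one in both knockdowns. The Zic1 start lay 45.8 kb from the nearest anchor in Brg1KD, against 4.23 kb in Ino80KD and in Control. The Otx2 start lay 168 kb from the nearest anchor in every list. GATC was found in the promoter of Neurog1 and in none of the other 6, against 40.4% of 20078 autosomal promoters of this length. CCCTC on either strand was found in all 7, against 65% of those promoters, with 4 copies at Olig2, 3 at Sox1 and Six3, 2 at Pax6 and Neurog1 and 1 at Zic1 and Otx2. Counts of the dinucleotide CG were 29 at Sox1 and Neurog1, 27 at Zic1, 22 at Olig2, 15 at Pax6, 10 at Six3 and 6 at Otx2, beside a median of 10 and quartiles of 3 and 19 over all promoters. These matches describe the letters in the window and are no evidence of binding.

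In Control the 8 genes did not share 1 kind of chromatin. Olig2 had a window mean rank of 7.27 in both Control libraries, the top of the order. Otx2 followed with 7 and 6.64, Neurog1 with 6.91 and 6.45 and Sox1 with 6.45 and 6.73, and the libraries of these 3 genes overlapped. Six3 had 5.18 and 4.64, Pax6 4.64 and 4.73, and Pax3 4 and 4.33, so Six3 and Pax6 overlapped and Pax3 lay below both. Zic1 had 2.18 in both libraries and was the only 1 of the 8 whose whole window lay in B. The median over the 20524 placed protein-coding genes was 6.32 (quartiles 4 and 7.55), with 4 members above it and 4 below. In the windows 80.9% of the 89 bins lay in A in both Brg1KD libraries and 71.9% in both Ino80KD libraries, against 75.3% and 71.9% in the Control libraries. Over all bins, which include those far from any gene, the share in A was 38.5% to 39.7% in the 6 libraries. This is no comparison with other gene windows. In Control the mean rank was 5.41 over the 8 members and 5.66 over all placed protein-coding genes. The 2 libraries of a group gave the same label to 71.9% of the bins of the windows in Brg1KD, 76.4% in Ino80KD and 68.5% in Control, and 25 of the 89 bins (28.1%) had 1 label in all 6 libraries, beside 33.8% over all bins.

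**Figure D1:**
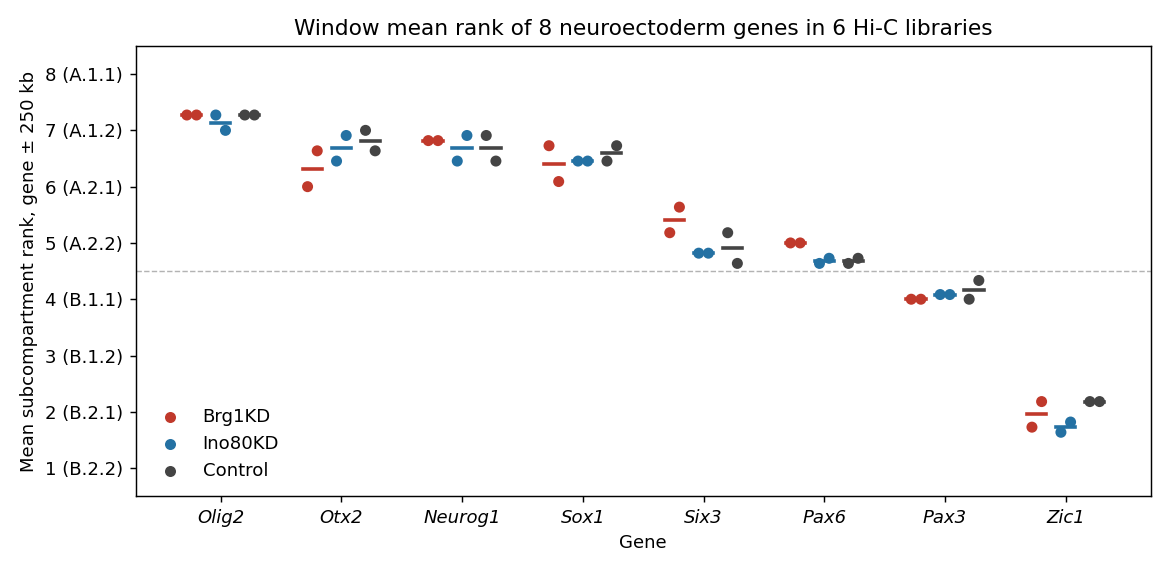
Window mean rank (vertical axis, subcompartment rank from 1, B.2.2, to 8, A.1.1) of each gene in the 6 libraries, points being libraries and bars the group means, with a dashed line at the border between A and B. Olig2 sits at 7.27 in 5 of the 6 libraries and Zic1 between 1.64 and 2.18, and Pax6 is at 5 in both Brg1KD libraries.

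After either knockdown none of the 8 windows passed the test. The test was limma over all 20524 gene windows, with all 6 libraries in 1 fit and a Benjamini-Hochberg adjusted p under 0.05 as the threshold. It called 0 of 8 members in Brg1KD against Control, where 2.46% of all windows were called, 0 of 8 in Ino80KD against Control (1.44% of all) and 0 of 8 in Brg1KD against Ino80KD (1.59% of all). At an unadjusted p under 0.05 the counts were 1, 0 and 1, and that gene was Pax6 both times. The share of all windows below that unadjusted p was not counted, so 1 of 8 is not shown to exceed it. In Brg1KD 3 members had a positive shift (towards A), 4 a negative one and 1 none, with a median of -0.08 classes, beside a median of 0 over all genes. Of all 20524 windows 8126 were positive, 8529 negative and 3869 at 0. In Ino80KD none was positive, 6 were negative and 2 were at 0, with a median of -0.11, again beside 0. All windows also leaned towards B there, with 6853 positive, 8996 negative and 4675 at 0. Both comparisons use the same 2 Control libraries.

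Pax6 (chr2:105668896-105698410) was the member whose Brg1KD libraries both lay outside the Control range. Its window mean rank was 5 and 5 in Brg1KD, 4.64 and 4.73 in Ino80KD, and 4.64 and 4.73 in Control. Both Brg1KD libraries were above all 4 others, and Ino80KD and Control held the same pair of values. The shift was 0.32 ± 0.05 classes (SE, n = 2 libraries each) in Brg1KD against Control, 0.36 and 0.27 within the batches, with a limma adjusted p of 0.123. Against Ino80KD it was 0.32 with an adjusted p of 0.157. No other member had both Brg1KD libraries beyond both Control libraries, a count of 1 of 8 beside 23.1% of all gene windows. Between the knockdowns 3 of 8 windows were separated in this way (Pax6, Six3 and Pax3), beside 22.1% of all. The bin that holds Pax6 itself was A.2.2 in all 6 libraries, so the difference lay beside the gene.

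The shift came mainly from 1 stretch of 4 bins, chr2:105750001-105950000, which begins 51.6 kb beyond the end of Pax6. It was A.2.2 in both Brg1KD libraries and B.1.1 in both Ino80KD and both Control libraries. The stretch thus lay on the A side of the border in Brg1KD and on the B side in the other 4 libraries. It holds most of Elp4, a subunit of the Elongator complex whose introns are known to hold distant enhancers of Pax6, and part of Immp1l, a mitochondrial inner membrane peptidase. In the fit per 50 kb bin these 4 bins each rose by 1 class against Control, with a limma adjusted p of 8.00e-08, and against Ino80KD with 9.78e-08. At the other end of the window the bin chr2:105400001-105450000 went the opposite way, as A.2.2 in both Brg1KD and A.2.1 in both Control libraries (adjusted p = 0.733). The 4 bins are adjacent and carry 1 label, so they are 1 event and not 4. These small p-values rest on labels that were identical within each group, which leaves no residual spread. With 1 common variance for all bins none of the 4 was called. In that fit p depends only on the size of the shift, so no bin with a shift of 1 class could be called. It therefore does not check these 4 bins in particular.

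**Figure D2:**
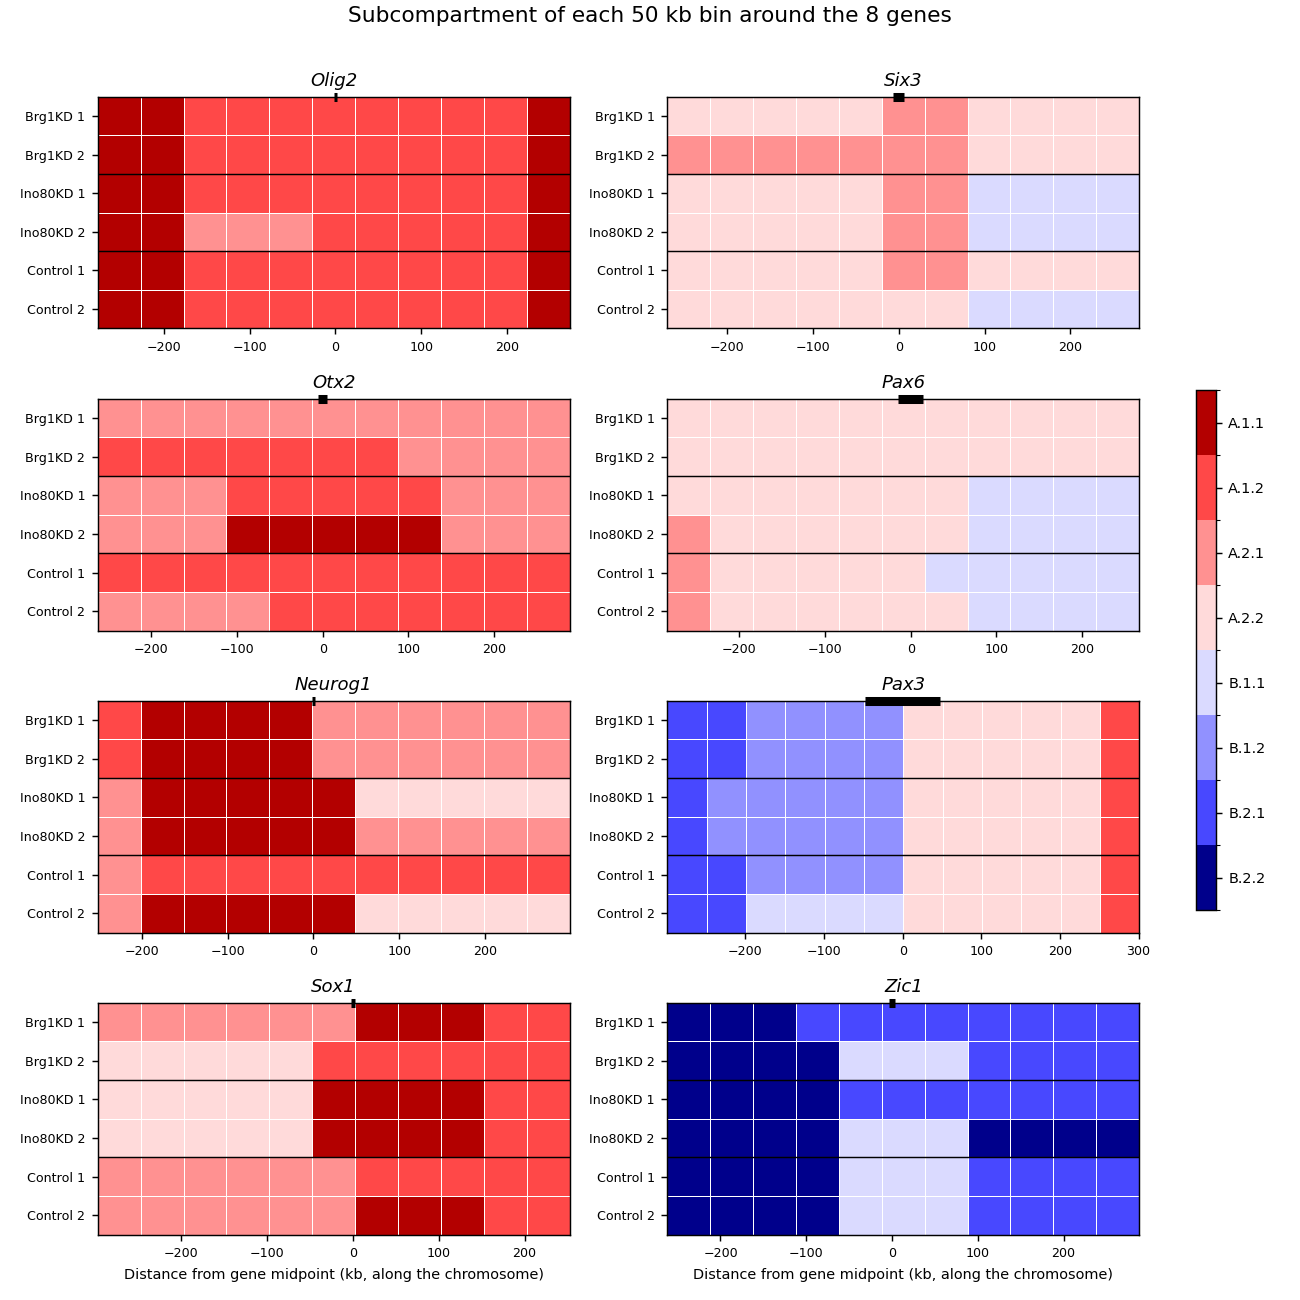
Subcompartment of each 50 kb bin (colour, B.2.2 to A.1.1) in the 6 libraries (rows) by distance from the gene midpoint in kb along the chromosome, with the gene as a black bar. The right-hand 4 bins of Pax6 are in A in both Brg1KD libraries and in B in the other 4, and the labels of Olig2 hardly vary.

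Over all 8 windows limma called 8 of 89 bins (8.99%) in Brg1KD against Control, beside 4.83% of all 47717 bins. Of these 5 moved towards A (1.53% of all bins) and 3 towards B (3.3% of all). In Ino80KD against Control it called 4 (4.49%), beside 3.22%, with 1 towards A (0.855% of all) and 3 towards B (2.37% of all). In Brg1KD against Ino80KD it called 6 (6.74%), beside 3.96%, with 5 towards A (1.82% of all) and 1 towards B (2.14% of all). All of these bins had no residual spread. At an unadjusted p under 0.05 the counts were 9, 5 and 9, beside 6.08%, 3.77% and 5.0% of all bins. Bins in which both libraries of 1 group lay beyond both of the other numbered 11 (12.4%) for Brg1KD, beside 10.3% of all bins, 10 (11.2%) for Ino80KD, beside 6.25%, and 13 (14.6%) between the knockdowns, beside 8.86%. Bins that changed sides of the border between A and B in all 4 libraries numbered 4 in Brg1KD (4.49%, beside 1.45%), the Pax6 stretch, and 0 in Ino80KD (beside 0.778%). Between the knockdowns 8 bins did so (8.99%, beside 1.31%), 4 beside Pax6 and 4 beside Six3. With a common variance 1, 1 and 1 bins were called, none of them among the 8, 4 and 6, and over 100 kb on each side 1, 0 and 1. The bins among the 8, 4 and 6 all moved by 1 class, and with a common variance equal shifts have equal p-values. Their loss there was thus fixed by the size of the step. The share of all bins called with a common variance is not given here. Neither is the number of bins in the narrower windows, so these counts have no share beside them. The counts of 8, 4 and 6 also depend on single libraries and rose when 1 was left out. The lone library left in a group is then assumed to vary like the other groups. No share over all bins was set beside those counts, so they are not shown to exceed the share of all bins. They are listed at the end only as a dependence on the processing.

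Otx2 (chr14:48656781-48667644) had window mean ranks of 6 and 6.64 in Brg1KD, 6.45 and 6.91 in Ino80KD, and 7 and 6.64 in Control. The groups overlapped, and the shift of -0.50 ± 0.32 in Brg1KD was -1 in batch 1 and 0 in batch 2 (adjusted p = 0.721). In Ino80KD it was -0.14 (adjusted p = 1). At the far end of the window, chr14:48800001-48950000, 3 bins were A.2.1 in both Brg1KD and both Ino80KD libraries and A.1.2 in both Control libraries. Each was called in Brg1KD (adjusted p = 8.00e-08) and in Ino80KD (1.20e-07), 1 class towards B. With a common variance none of the 3 was called in either comparison, but no bin with a shift of 1 class could be called there. The bins lie 132 kb from Otx2, on the upstream side of a gene read on the minus strand, and hold no protein-coding gene of the RefSeq table. The bin of Otx2 itself was A.2.1 and A.1.2 in Brg1KD, A.1.2 and A.1.1 in Ino80KD, and A.1.2 in both Control libraries. Otx2 was also the only member with no loop anchor within 50 kb in any of the 3 lists.

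Sox1 (chr8:12395519-12399555) had window mean ranks of 6.73 and 6.09 in Brg1KD, 6.45 and 6.45 in Ino80KD, and 6.45 and 6.73 in Control. The groups overlapped and the shifts were -0.18 ± 0.26 in Brg1KD (adjusted p = 0.894) and -0.14 in Ino80KD (1). Within the Ino80KD window the gene and its flank went opposite ways. The bin of Sox1 was A.2.1 and A.1.2 in Brg1KD, A.1.1 in both Ino80KD libraries, and A.2.1 in both Control libraries. The difference from Control was 2 classes in Ino80KD, with an adjusted p of 0.318 in the fit per bin. With 1 common variance for all bins its adjusted p was 0.00371. The 5 bins before it, chr8:12100001-12350000, were A.2.2 in both Ino80KD and A.2.1 in both Control libraries, 1 class towards B (adjusted p = 0.970).

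Six3 (chr17:85613608-85626191) had window mean ranks of 5.18 and 5.64 in Brg1KD, 4.82 and 4.82 in Ino80KD, and 5.18 and 4.64 in Control. Against Control the shift was 0.50 ± 0.27 in Brg1KD, 0 in batch 1 and 1 in batch 2 (adjusted p = 0.721), and -0.09 in Ino80KD (1). Both Brg1KD libraries were above both Ino80KD libraries, by 0.59 ± 0.27 classes, with an adjusted p of 0.692. The groups separated in 4 bins, chr17:85700001-85900000, beyond the neighbouring Six2. The rest of the difference came from 5 bins below the gene, A.2.1 in replicate 2 of Brg1KD and A.2.2 in the other 5 libraries. The 4 bins were A.2.2 in both Brg1KD libraries and B.1.1 in both Ino80KD libraries, and A.2.2 and B.1.1 in the 2 Control libraries (adjusted p = 0.866 for Brg1KD against Ino80KD). The bin of Six3 was A.2.1 in all libraries but replicate 2 of Control, where it was A.2.2.

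Pax3 (chr1:78101267-78197136) crosses a border of subcompartments in every library. The bin with its lower coordinates was B.1.2 in 5 libraries and B.1.1 in replicate 2 of Control, and the next bin was A.2.2 in all 6. Window mean ranks were 4 and 4 in Brg1KD, 4.08 and 4.08 in Ino80KD, and 4 and 4.33 in Control, so both knockdowns lay within the Control range. The shift of -0.17 in Brg1KD (adjusted p = 0.721) came from replicate 2 of Control alone, and in Ino80KD the shift was -0.08 (0.996). A bin 151 kb away, chr1:77900001-77950000, was B.1.2 in both Ino80KD libraries and B.2.1 in the other 4, which limma called (1 class towards A, adjusted p = 1.20e-07).

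Zic1 (chr9:91358058-91365768) was the member with the largest shift in Ino80KD. Its window mean rank was 1.73 and 2.18 in Brg1KD, 1.64 and 1.82 in Ino80KD, and 2.18 and 2.18 in Control. Both Ino80KD libraries lay below both Control libraries, by -0.45 ± 0.18 classes, with -0.55 and -0.36 within the batches and an adjusted p of 0.846. It was the 1 member of 8 with that separation in Ino80KD, beside 16.6% of all gene windows. In Brg1KD the shift was -0.23 (adjusted p = 0.721), and 1 library was at the Control level. The bin that holds Zic1, and the overlapping zinc finger gene Zic4, was B.1.1 in both Control libraries, while each knockdown gave B.2.1 in replicate 1 and B.1.1 in replicate 2. No bin of the window was in A in any library.

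The 2 basic helix-loop-helix genes had small window shifts. Olig2 (chr16:91225550-91228677) had 7.27 in both Brg1KD libraries, 7.27 and 7 in Ino80KD, and 7.27 in both Control libraries. Its own bin was A.1.2 in all 6 libraries, and the shift was 0 in Brg1KD and -0.14 in Ino80KD (adjusted p = 0.846). Neurog1 (chr13:56250478-56252180) had 6.82 and 6.82 in Brg1KD, 6.45 and 6.91 in Ino80KD, and 6.91 and 6.45 in Control. The groups overlapped, with a shift of 0.14 in Brg1KD (adjusted p = 0.950) and 0 in Ino80KD. Its own bin stood apart from its window: it was A.2.1 in both Brg1KD libraries, A.1.1 in both Ino80KD libraries, and A.1.2 and A.1.1 in Control. This is a difference of -1.50 classes from Control (adjusted p = 0.413) and of -2 from Ino80KD (0.256). With 1 common variance for all bins the adjusted p was 0.0466 and 0.00235. The bin also holds Cxcl14, a chemokine gene.

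**Figure D3:**
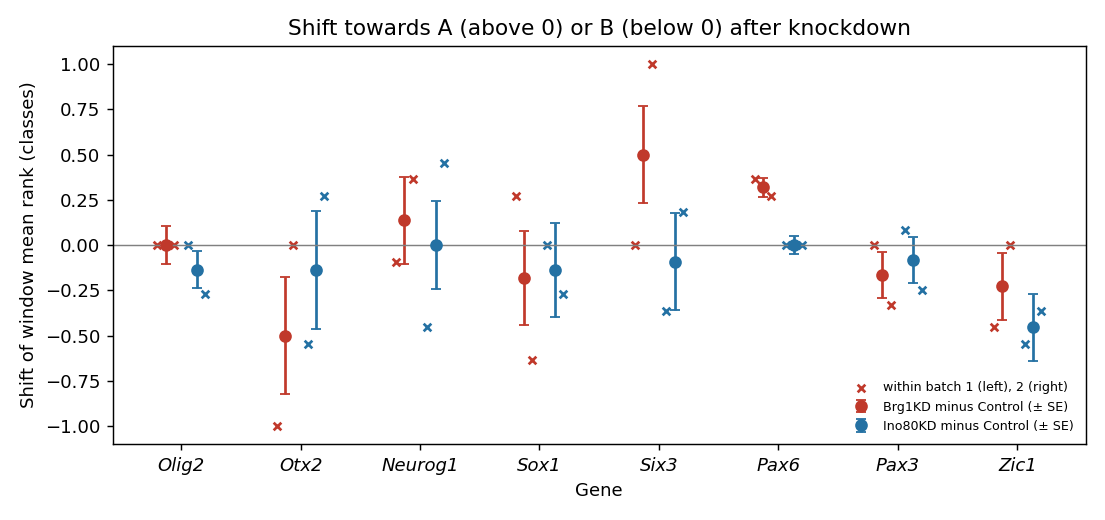
Shift of the window mean rank in classes (vertical axis, above 0 towards A) for each gene in Brg1KD and in Ino80KD against Control, points with SE from limma and crosses for batches 1 and 2. Pax6 in Brg1KD and Zic1 in Ino80KD have both batches on 1 side of 0 and apart from it, while at Otx2 and Six3 in Brg1KD the batches differ by 1 class.

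The loop lists set the genes apart in another way. Near the 8 members there were 11 loops in Brg1KD, 17 in Ino80KD and 17 in Control, and 7 of the 8 genes had at least 1 in each list. Of all protein-coding genes 56.3% had such a loop in Brg1KD, 53.7% in Ino80KD and 56.2% in Control. Of the 17 Control loops 11 (64.7%) were also in the Brg1KD list, with both anchors within 10 kb, and 16 (94.1%) in the Ino80KD list. In the whole Control list 77.0% were found again in Brg1KD and 75.1% in Ino80KD. Seen from the other side, all 11 Brg1KD loops of the members were in both other lists, and 16 of the 17 Ino80KD loops (94.1%) were in Control. In the whole Brg1KD list 75.6% were found in Control and 70.9% in Ino80KD, and in the whole Ino80KD list 81.0% were found in Control.

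Of the 6 Control loops not found in Brg1KD, 5 were over 700 kb and 1, at Pax6, spanned 140 kb. The Control list had 5 loops over 700 kb at 3 members: 2 at Sox1, 1 at Six3 and 2 at Zic1. Of these 0 of 5 were in the Brg1KD list and 5 of 5 in the Ino80KD list, while 66.0% and 65.6% of the 636 Control loops over 700 kb were found again in the 2 lists. The length of 700 kb was chosen after the loops had been seen. Over 500 kb the counts were 2 of 7 in Brg1KD and 7 of 7 in Ino80KD (69.1% and 67.5% of the whole list), and over 1000 kb 0 of 3 and 3 of 3 (60.9% and 63.4%). The 5 loops use 3 near anchors, so they are not 5 separate cases. The remaining Control loops of the members, 700 kb or less, were found in Brg1KD for 11 of 12 (91.7%, beside 78.4%) and in Ino80KD for 11 of 12 (91.7%, beside 76.3%).

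**Figure D4:**
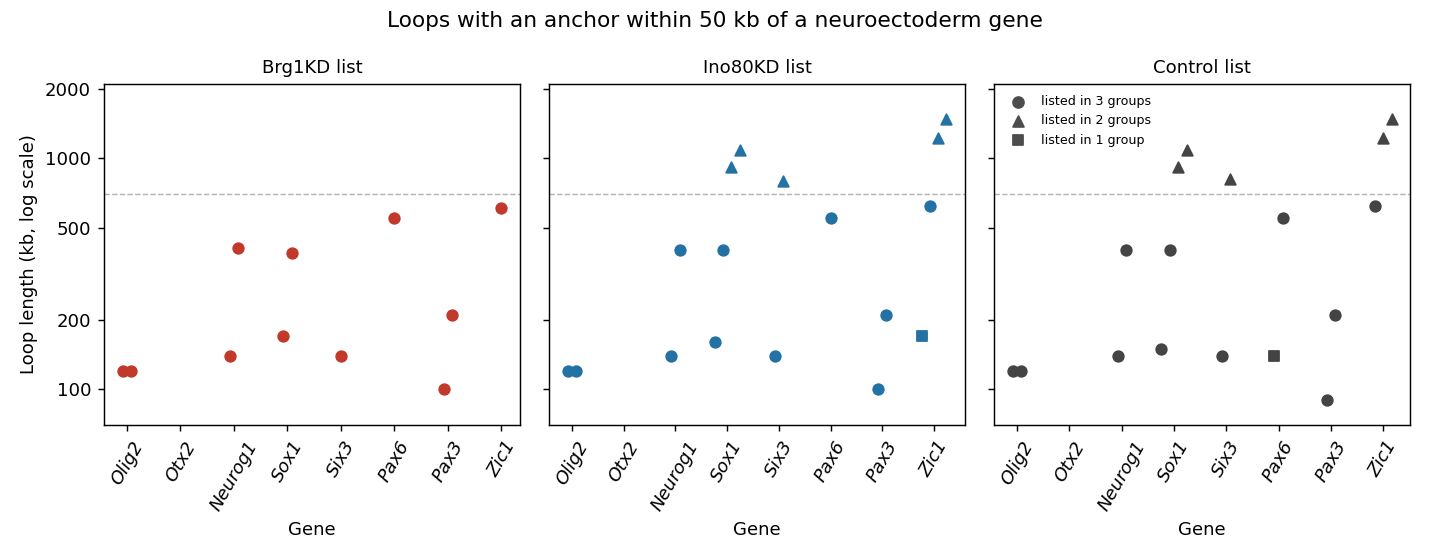
Length in kb (logarithmic vertical axis) of each loop with an anchor within 50 kb of a gene, in the lists of Brg1KD, Ino80KD and Control, with a dashed line at 700 kb and marker shapes for the number of lists that hold the loop. Above the line there are 0 points in Brg1KD and 5 each in Ino80KD and Control, at Sox1, Six3 and Zic1.

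At Sox1 the anchor chr8:12390001-12400000, which holds the gene and the promoter printed above, was the end of 2 long loops in Ino80KD and Control. The first, of 1080 kb, ended at chr8:11310001-11320000, where Col4a1 and Col4a2, the paired genes of type IV collagen, meet. The second, of 920 kb, ended at chr8:11470001-11480000 in Rab20, a small GTPase gene. Both had identical anchors in Ino80KD and Control. The nearest Brg1KD loops had an anchor 660 kb and 500 kb off, and neither far anchor was used by any Brg1KD loop. Counting loops with an end within 10 kb of the Sox1 anchor, there was 1 in Brg1KD, against 3 in Ino80KD and 3 in Control, and at exactly this anchor 1 in Brg1KD, against 2 in Ino80KD and 2 in Control. The short loops of Sox1 were in all 3 lists: 1 of 390 kb in Brg1KD and 400 kb in the others, and 1 of 170 kb in Brg1KD, 160 kb in Ino80KD and 150 kb in Control towards Spaca7. The Col4a1 end was in A.2.1 in all 6 libraries, and the Rab20 end was in A.1.1 in both Brg1KD libraries and in A.2.1 and A.1.1 in Ino80KD and in Control.

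At Zic1 the long loops of 1480 kb and 1220 kb shared the near anchor chr9:91370001-91380000, which lies inside Zic4, 4.23 kb from Zic1. The annotated spans of Zic1 and Zic4 overlap, and 10 kb anchors cannot tell which of the pair a loop belongs to. The far ends were chr9:89890001-89900000, 9.5 kb from Rasgrf1, a Ras exchange factor gene, and chr9:90150001-90160000, 2.9 kb from Adamts7, a metalloprotease gene. Anchors were identical in Ino80KD and Control, and the near anchor had 0 loops in Brg1KD, against 2 in Ino80KD and 2 in Control. The nearest Brg1KD loops were 800 kb and 540 kb off. The far bin beside Adamts7 was in A in all 6 libraries (A.2.1 or A.1.2), while the Zic1 bin was in B in all 6, so this loop joined A with B. The remaining Zic1 loop of Control, from an anchor 38.1 kb away, was in all 3 lists with 610 kb in Brg1KD and 620 kb in Ino80KD and Control. A loop of 170 kb from that anchor was listed in Ino80KD only.

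At Six3 the long loop of 800 kb in Ino80KD and 810 kb in Control ran to chr17:84840001-84850000, 49.2 kb from Lrpprc. Its near anchor lay between Six3 and Six2, another homeobox gene of the family. In Ino80KD it was 13.8 kb from Six3 and 12.7 kb from Six2, and in Control 23.8 kb from Six3 and 2.74 kb from Six2. The nearest Brg1KD loop was 280 kb off. Within 10 kb of the Control near anchor there were 0 loop ends in Brg1KD, 1 in Ino80KD and 1 in Control. Within 10 kb of the far anchor there was 1 in Brg1KD, against 1 in Ino80KD and 2 in Control, so the far anchor was still used in Brg1KD. The loop of 140 kb from Six3 towards Camkmt, a calmodulin methyltransferase gene, had identical anchors in all 3 lists.

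The other loops of the members recurred. Pax6 was joined to Wt1, the zinc finger gene of the Wilms tumour, over 550 kb by identical anchors in all 3 lists. The Pax6 end was in A.2.2 in all 6 libraries and the Wt1 end in A.1.2 in all but replicate 1 of Control, where it was A.1.1. A second Pax6 loop of 140 kb was listed in Control only. The stretch beside Pax6 that moved to A in Brg1KD lies on the other side of the gene from both loops. Neurog1 was joined to Pitx1, a homeobox gene of the hindlimb, over 410 kb in Brg1KD and 400 kb in Ino80KD and Control. The Pitx1 end was in A.1.2 in both Brg1KD libraries and in A.2.1 in the other 4. Olig2 kept 2 loops of 120 kb with identical anchors in all lists, 1 towards the interferon receptor gene Ifnar2 and 1 to 4932438H23Rik. Pax3 had a loop of 210 kb with identical anchors in all lists and 1 to Sgpp2, a sphingosine phosphatase gene, of 100 kb in both knockdowns and 90 kb in Control.

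Other genes of the same programme were read from lists beside the members. Among 30 other neural plate and patterning genes, 1 was called in Brg1KD, the hindbrain border gene Gbx2 (chr1:89927962-89931176), and none was called towards A. Of all gene windows 2.46% were called in Brg1KD, so 1 of 30 is not shown to exceed that share. Gbx2 had 6.64 and 6.64 in Brg1KD, 6.64 and 6.64 in Ino80KD, and 7 and 7 in Control. Its shift was -0.36 in either knockdown, with adjusted p of 0.00276 in Brg1KD and 0.00359 in Ino80KD (0.0363 and 0.0505 with the batch as a block). The labels were identical within each group, as in 2522 windows that have no residual spread, and with a common variance the adjusted p was 0.739 in Brg1KD and 0.962 in Ino80KD. Over 500 kb it was 0.126 and 0.305, over 100 kb the shift was -0.20 in both and stayed called, and the bin of Gbx2 itself did not shift. The list as a whole had a median of -0.22 in Brg1KD, with 19 of 30 negative and 5 positive, beside a median of 0 over all genes. Its negative genes include Zic4, which has the same window mean ranks as the overlapping member Zic1. Of all 20524 gene windows 8529 were negative and 8126 positive in Brg1KD. The largest shifts that did not pass were -0.95 at En1 (adjusted p = 0.321), -0.73 at Gsx2 (0.189) and -0.71 at Irx3 (0.721). The largest shift the other way, picked after its value was seen, was 0.50 at Nkx2-2 (0.525). In Ino80KD the median was -0.08, with 16 of 30 negative, beside 8996 of all 20524 gene windows. Gbx2 was again the only 1 called, beside 1.44% of all gene windows.

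Among 13 neural inducers and morphogens, Chrd (chr16:20731425-20742384), which encodes the secreted BMP antagonist chordin, fell by 0.91 classes in Brg1KD. It had 6.64 and 6.64 in Brg1KD, 7.27 and 7.36 in Ino80KD, and 7.64 and 7.45 in Control (adjusted p = 0.0275 for Brg1KD, and 0.132 with the batch as a block). The call also depended on single libraries of Brg1KD and of Ino80KD. It ended over 100 kb (0.0822) and over 500 kb (0.126), and the bin of Chrd itself had a shift of 0. With a common variance the Chrd window stayed called. Lefty1 (chr1:180935022-180938401), a Nodal antagonist, rose by 0.18 to 8 in all 4 knockdown libraries, against 7.82 in both Control libraries, with adjusted p of 0.0147 in Brg1KD and 0.0233 in Ino80KD (0.0864 and 0.134 with the block). With a common variance both calls were lost (adjusted p = 1), and over 500 kb the shift was -0.0476 in both, while over 100 kb it was 0.40 and in the bin of Lefty1 itself 1, both called. Of the 13 inducers and morphogens 1 was called towards A and 1 towards B in Brg1KD, beside 2.46% of all gene windows. In Ino80KD 1 was called towards A and none towards B, beside 1.44%. Counts this small are not shown to exceed these shares. No gene was called among 11 proneural basic helix-loop-helix genes, 11 placed pluripotency genes, 12 mesendoderm, 10 primitive endoderm and 9 placed trophectoderm genes. Their medians ran from -0.18 to 0.09 in Brg1KD and from 0 to 0.08 in Ino80KD. In the proneural list Olig1 has the same window mean ranks as the neighbouring member Olig2. Control loops over 700 kb near these lists were found again in Brg1KD for 12 of 19 at neural plate genes, 3 of 5 at inducers, 4 of 5 at pluripotency genes, 6 of 10 at mesendoderm genes, 7 of 11 at primitive endoderm genes, 1 of 1 at proneural genes and 1 of 1 at trophectoderm genes. In Ino80KD the counts were 16 of 19, 4 of 5, 5 of 5, 9 of 10, 10 of 11, 1 of 1 and 0 of 1. The 19 loops at neural plate genes include the 1480 kb and 1220 kb loops of the member Zic1. Their near anchor lies inside Zic4, a gene of that list, and both were in the Ino80KD list and not in the Brg1KD list.

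For each member the gene on another chromosome with the most similar window mean ranks over the 6 libraries was also read. The smallest mean absolute difference was 0.0152 classes, between Olig2 and Gm39002, and the largest 0.120, between Six3 and Fuom. Pax6 was closest to Ibsp (0.0593), which had 5.17 and 5 in Brg1KD, 4.75 and 4.75 in Ino80KD, and 4.67 and 4.75 in Control. Ibsp was picked for its likeness in these same 6 libraries, so its higher Brg1KD values follow from that choice. The closest gene was Oprl1 for Sox1 (0.106, tied with others), Gspt1 for Otx2 (0.0909, tied with another), Rnf212 for Pax3 (0.0694), Xpa for Neurog1 (0.0455) and Grb14 for Zic1 (0.106).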

How the data were processed

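Hi-C of 6 libraries was used. The authors deposited, per the file headers and values, 1 segment file per library with a subcompartment label and a score, the rank over 8, and 1 list of loop anchors of 10 kb (coordinates only) per group, named as merged. Per the submitters' processing notes, mm10, BWA, SAMtools, Juicer 2.0, HOMER and bedtools were used. The callers and thresholds are not given in the sources used here. Segments were cut into 50 kb bins, of which 47717 of 48009 had a label in all 6 libraries. Genes were placed by RefSeq (GRCm38.p6). Mean ranks of gene windows, and single bins, were tested with limma (version 3.58.1, under R 4.3.3; moderated statistics from eBayes, adjustment by Benjamini-Hochberg over all windows or bins, threshold 0.05), after the code had been tested on simulated shifts. Of the bins 18941 had no residual spread, so p-values per bin are poorly calibrated and describe the labels. With a common variance p depends only on the size of the shift, so bins or windows with equal shifts are called or lost together. An exact permutation test of 2 against 2 libraries cannot give p below 0.333 and was not used.

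The replicate number is the batch per the labels and so pairs the libraries. Deviations from group means correlated with r of 0.0984 (Brg1KD and Control), 0.102 (Ino80KD and Control) and 0.0885 (Brg1KD and Ino80KD). The members and lists were chosen with earlier results of these data known. Named genes were all 8 members, up to 2 genes within 50 kb of a far anchor, list genes called by limma or with the largest shift (up to 4 per list and comparison), and the most similar gene per member. Alternatives were other windows, segment base pairs, a common variance, the batch as a block, libraries left out, other anchor distances and other loop matches. No file was left out.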

Additional observations from a re-analysis of the deposited data

Results flagged for a closer look

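Brg1KD and Ino80KD, each set against the same Control libraries, differed from each other in 3 places of the windows by the limma test per bin. The 4 bins beside Pax6 lay 1 class higher in Brg1KD than in Ino80KD (adjusted p = 9.78e-08), as A.2.2 in both Brg1KD libraries and B.1.1 in both Ino80KD libraries. A single bin beside Pax3 had a difference of -1 class (9.78e-08), as B.2.1 in both Brg1KD libraries and B.1.2 in both Ino80KD libraries. A single bin beside Neurog1, chr13:56000001-56050000, lay 1 class higher (9.78e-08), as A.1.2 in both Brg1KD libraries and A.2.1 in both Ino80KD libraries. All 3 rest on identical labels within each group. None was called with a common variance, where no bin with a shift of 1 class could be called.

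The Six3 window is listed because both Brg1KD libraries lay above the mean of Control and both Ino80KD libraries below it, a difference of 0.591 classes between the knockdowns. The direct limma comparison gave an adjusted p of 0.692, and the opposite movement itself was not tested further.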

How the results depend on the processing

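With the batch (replicate number) as a block, the called bins stayed 8 (Brg1KD), 4 (Ino80KD) and 6 (Brg1KD against Ino80KD), no member window was called, and Pax6 in Brg1KD had an adjusted p of 0.168. The block ended the calls of Gbx2 in Ino80KD, Chrd in Brg1KD and Lefty1 in both, as given beside them. The mean member shift was -0.02 (Brg1KD), -0.13 (Ino80KD) and 0.11 (Brg1KD minus Ino80KD). Over only the bins that overlap each gene it was -0.28, 0.28 and -0.56, and over 100 kb on each side it was -0.0062 in Ino80KD and -0.075 between the knockdowns. Leaving out 1 library gave -0.07 to 0.04, -0.19 to -0.07 and 0.06 to 0.17. Called bins numbered 1, 1 and 1 with a common variance, 1, 0 and 1 over 100 kb, 14, 8 and 16 over 500 kb, and 9 to 19, 5 to 18 and 7 to 21 without 1 library. In the same order of groups as the lists (Brg1KD, Ino80KD, Control), loops numbered 5, 6 and 7 with the anchor on the gene and 22, 27 and 27 within 250 kb. With identical anchors 6 Control loops were in Brg1KD. Long loops found again over 500 kb numbered 2 in Brg1KD, and over 1000 kb 3 in Ino80KD. Over 500 kb Lefty1 turned to -0.0476 in both knockdowns. At Pax3 calls appeared without replicate 1 of Control, with shifts of -0.33 in Brg1KD and -0.25 in Ino80KD. At Olig2 they appeared without replicate 1 of Ino80KD, with a shift of -0.27. In these fits 1 group held a lone library and each other group held identical values. No residual spread was left, so these calls rest on 1 library. Of 288 alternative values of member shifts 21 had the opposite sign, in 8 of 24 results. The cause of these changes was not tested. The counts of called bins in these alternatives have no share over all bins beside them. Without 1 library, the lone library left in a group is assumed to vary like the other groups. Those counts show only that the calls depend on the processing, and are no evidence of more changed bins. Read depth is unknown, labels are steps, and with 2 libraries a group a shift short of the threshold is not shown to be absent.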
